A study of Mus musculus with 12 samples.

Results

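Ribosome footprints of 10 genes that write, read, keep or remove DNA methylation, or that form the Polycomb repressive complex 2 (PRC2), were followed in a mouse B cell lymphoma line. The genes were Dnmt1, Uhrf1, Hells, Dnmt3a, Dnmt3b, Tet2, Tet3, Ezh2, Eed and Suz12. They were chosen by function, with earlier results of these data known, and matched by their Ensembl gene IDs, 10 of the 22520 IDs counted. Of these, 9 had enough reads for a test and Dnmt3b did not. The tests covered 6692 genes.

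The cells carried RPL12 with alanine at serine 38 (S38A), RPL12 with aspartate there (S38D) or wild-type RPL12 (WT). RPL12, or uL11, lies at the base of the stalk of the large ribosomal subunit, alanine cannot be phosphorylated and the charge of aspartate resembles that of phosphoserine. Each genotype was profiled after nocodazole (100 ng/mL for 8 hr, then 10 min without the drug), called mitotic, and without nocodazole, called asynchronous. There were 2 libraries in each of the 6 groups. Cycloheximide, which halts translating ribosomes, is listed at 100 µg/mL for all 12 libraries. All groups share the background of the line, listed as 19PP. The lymphoma arose in a Rag2-/- γC-/- mouse given Cγ1-Cre; Myc/P110*flSTOP bone marrow, and the cultured subline, 19DN, had lost the GFP and hCD2 reporters. Cγ1-Cre acts in activated B cells, and the transgenes it switches on supply Myc and an active PI3K subunit. The number of clones behind each genotype is not given, so genotype here means the cells that carry the label. Nor is it stated that paired libraries stem from separate cultures, so the spread behind the p-values may be technical. Nocodazole treatment and mitotic state cannot be told apart, because every mitotic library and no other came from nocodazole-treated cells.

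Libraries held 258354 to 505500 reads in coding sequence, of which the 10 genes took 0.110 to 0.297%. Levels are given in CPM, reads scaled to a common library total. Each level is thus relative to the other genes of its library, and a change in translation shared by all genes would not show. With 1 read worth 2.05 to 3.91 CPM, genes with few reads are measured coarsely. A footprint level joins the amount of an mRNA to how heavily it is translated, and no RNA-seq was analysed beside it. In such bulk samples, fewer cells of a kind and less RNA per cell cannot be told apart. B cell markers, and Rpl12 itself, could not be looked up by symbol, so the labelled cell type was not checked.

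DNA methylation in mammals sits mainly on CpG cytosines and is copied at each replication. UHRF1 binds the half-methylated DNA behind the replication fork and brings in DNMT1, which methylates the new strand, while the chromatin remodeller HELLS (LSH) opens nucleosomal DNA to methylation. DNMT3A and DNMT3B set methylation on unmarked sites, and the TET dioxygenases oxidise methylcytosine, a step towards its removal. PRC2 places methyl groups on lysine 27 of histone H3 through its catalytic subunit EZH2, for which EED and SUZ12 are required partners. In B cells, EZH2 is known for its role in the germinal centre, and TET2 and EZH2 are recurrently mutated in B cell lymphomas.

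Promoter sequence is shown for the genes below because E2F-type sites are known in genes of DNA replication. Its relation to the footprint changes was not tested. RefSeq windows of 300 bases (250 before and 50 after each listed start, GRCm38.p6) were found for all 10 genes, 15 windows in all. They were searched on both strands for TTTCCCGC, TTTGGCGC, TTTGGCGG and TTTCCCGG. A match occurred in 4 of the 15 windows, belonging to 4 of the 10 genes, against 3.32% of 32851 RefSeq promoter windows with any of the 4 octamers. The octamer is in capitals in the lines that follow, each written 5′ to 3′ on the gene's strand. In Hells it lay at positions -62 to -55 from the start (chr19:38930917-38930946, plus strand), and in Suz12 at positions -219 to -212 (chr11:79992876-79992905, plus strand). In Ezh2 it covered bases 4 to 11 after the start (chr6:47595009-47595038, minus strand). In Dnmt1 it covered bases 34 to 41 after the third of the listed starts (chr9:20952574-20952601, minus strand).
Dnmt1: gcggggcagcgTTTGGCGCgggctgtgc
Hells: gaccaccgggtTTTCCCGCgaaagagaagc
Ezh2: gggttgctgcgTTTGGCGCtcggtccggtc
Suz12: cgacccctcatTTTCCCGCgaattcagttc
The letters TTTCCCGC occur in 1.07% and TTTGGCGC in 0.514% of all windows. None of the 4 octamers searched matched in either Uhrf1 window. The related octamer TTTCGCGC was not searched in all windows. It occurs in the second Uhrf1 window and, on the other strand, in the third Dnmt1 window. For comparison, the 60 bases before the first listed start of Uhrf1 (chr17:56303277-56303336, plus strand) read as follows, without capitals.
Uhrf1: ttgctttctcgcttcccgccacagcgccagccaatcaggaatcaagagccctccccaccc
A hexamer of the cell cycle homology region, TTTGAA, was present in windows of 4 genes (Dnmt1, Dnmt3b, Eed and Suz12) and in 17.9% of all windows. It shares no position with the octamers above. A match is a description of these letters, not of a bound site, and no binding was measured.

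The maintenance genes Dnmt1 and Uhrf1 changed with state and with genotype. Footprints of both fell in mitotic cells of every genotype, and S38A cells exceeded WT cells for both genes, whether mitotic or asynchronous. S38D cells lay above WT cells for both genes while asynchronous. Once mitotic, S38D cells held the lowest Dnmt1 levels of the experiment.

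Dnmt1 (chr9:20907206-20959888, GRCm38.p6) had 553 and 487 CPM in the 2 S38A mitotic libraries and 1385 and 1262 CPM in the S38A asynchronous ones. S38D mitotic libraries had 107 and 129.8 CPM, against 769 and 518 CPM in S38D asynchronous libraries. WT mitotic libraries had 195 and 139.9 CPM, against 313 and 418 CPM in WT asynchronous libraries. In no genotype did the 2 states overlap, and both S38A asynchronous libraries stood above all 10 others. The share of all genes whose groups separate in such ways was not counted, here or for the genes below. These values rest on 28 and 37 reads at the low end (S38D mitotic) and on 531 and 390 reads at the high end (S38A asynchronous). Ordered by mean, the groups were S38A asynchronous (1323 ± 87.3 CPM), S38D asynchronous (644 ± 178), S38A mitotic (520.4 ± 46.6), WT asynchronous (365 ± 74.4), WT mitotic (167 ± 38.6) and S38D mitotic (118 ± 16.2; SD, n = 2 each). Along that order only S38D asynchronous and S38A mitotic libraries overlapped.

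Uhrf1 (chr17:56303337-56323486) had 170.4 and 228 CPM in S38A mitotic libraries and 389 and 395 CPM in S38A asynchronous ones. S38D mitotic libraries had 87.8 and 109 CPM, against 308 and 284 CPM in S38D asynchronous libraries. WT mitotic libraries had 80.5 and 62.2 CPM, against 168 and 159 CPM in WT asynchronous libraries. Both states were separate in every genotype, as for Dnmt1. The order of the means was S38A asynchronous (392 ± 4.24 CPM), S38D asynchronous (296 ± 17.1), S38A mitotic (199 ± 40.6), WT asynchronous (164 ± 6.28), S38D mitotic (98.3 ± 14.8) and WT mitotic (71.3 ± 12.9; SD, n = 2 each), and no neighbours overlapped. The orders of Dnmt1 and Uhrf1 differed only in the last places, where the S38D and WT mitotic groups changed rank.

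**Figure D1:**
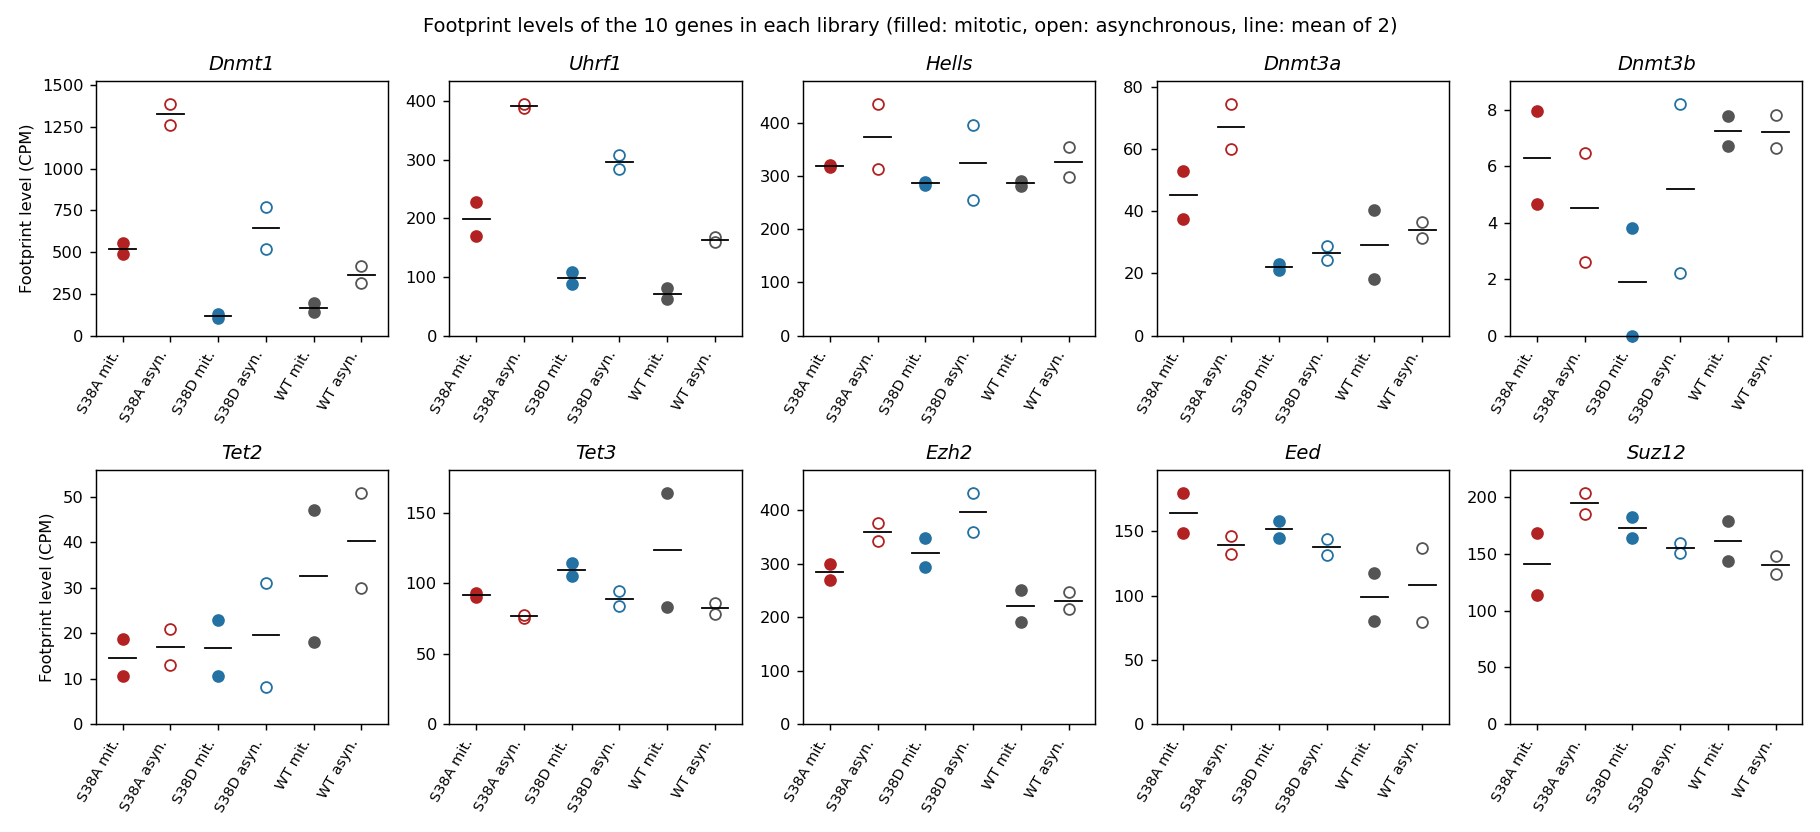
Footprint level of each of the 10 genes (y axis, CPM, from 0, with a separate scale per gene) in every library of the 6 groups (x axis; mit., mitotic, filled points; asyn., asynchronous, open points; S38A red, S38D blue, WT grey). Lines mark the mean of 2 libraries; Dnmt1 reaches 1385 CPM and Uhrf1 395 CPM in S38A asynchronous libraries, while Dnmt3b stays at 8.21 CPM or below.

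The change of state was tested across all genes with edgeR's quasi-likelihood test. Averaged over genotypes, 2 of the 9 tested genes passed an adjusted p of 0.05, both lower in mitotic cells, where 38.9% of all genes tested passed. Dnmt1 was 2.99-fold lower in mitotic cells (log2 change -1.58 ± 0.13 SE, 95% interval -1.84 to -1.32, adjusted p = 2.68e-15), the 31st largest fall among 6692 genes. Uhrf1 was 2.32-fold lower (log2 change -1.22 ± 0.13 SE, 95% interval -1.48 to -0.95, adjusted p = 2.12e-11). The share of members called lay below the share of all genes, so the result concerns these genes one by one and not the set. The members' median log2 change was -0.24, against -0.01 over all genes tested.

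Within genotypes the same 2 genes of the 9 passed each time, both lower in mitotic cells. The share of all genes passing was 18.6% in S38A, 21.4% in S38D and 18.4% in WT cells. The log2 change of Dnmt1 was -1.35 ± 0.15 in S38A, -2.44 ± 0.20 in S38D and -1.16 ± 0.21 in WT cells (SE, adjusted p = 1.65e-10, 3.72e-15 and 1.78e-05). For Uhrf1 it was -0.98 ± 0.18 in S38A, -1.58 ± 0.22 in S38D and -1.21 ± 0.27 in WT cells (SE, adjusted p = 2.35e-05, 5.95e-08 and 0.000459). Both genes therefore fell in all 3 genotypes, and the fall of Dnmt1 in S38D cells amounted to 5.42-fold. The 3 comparisons share no library.

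**Figure D2:**
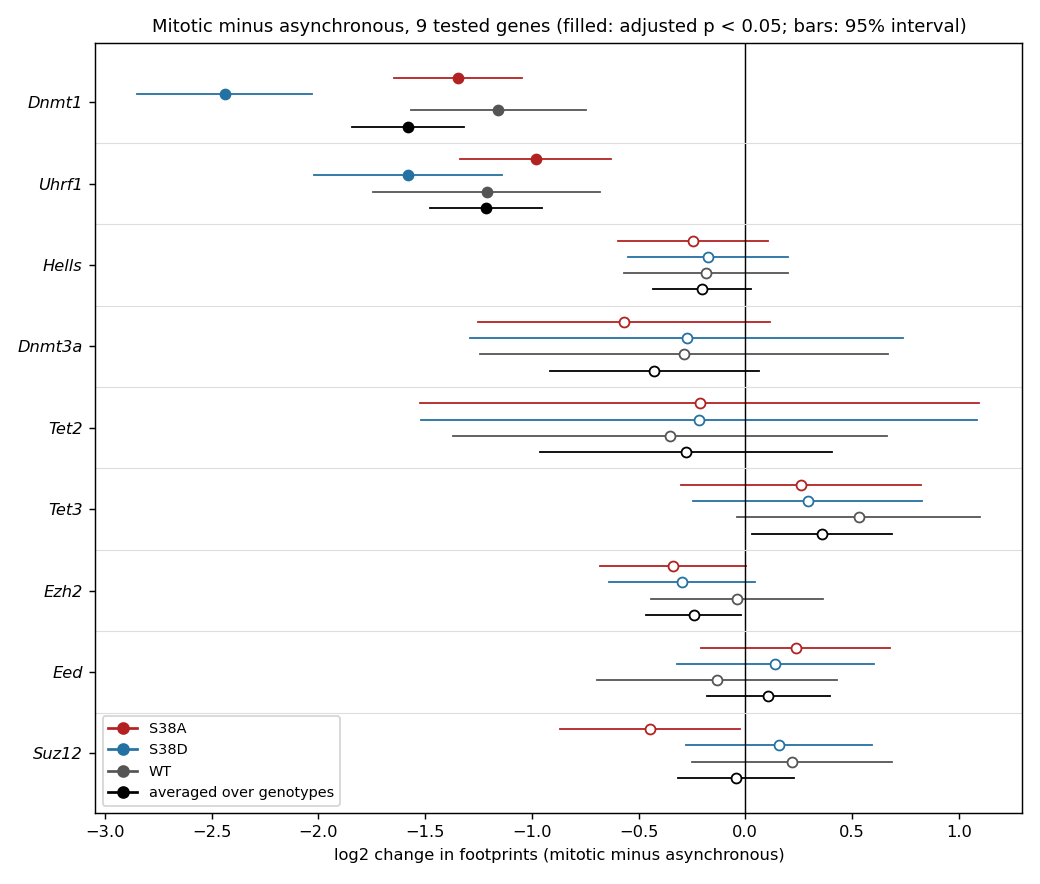
Log2 change of footprints, mitotic minus asynchronous (x axis), for the 9 tested genes (rows) in S38A (red), S38D (blue) and WT cells (grey) and averaged over genotypes (black). Points are estimates, filled at an adjusted p under 0.05, and bars are 95% intervals; only Dnmt1 and Uhrf1 have filled points, with averaged values of -1.58 and -1.22.

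Whether the mitotic fall itself differed between genotypes was tested as an interaction. Between S38D and S38A, a comparison added after the data were seen, 1 of the 9 genes passed, where 0.239% of all genes did. This was Dnmt1, whose mitotic change was lower in S38D than in S38A cells by 1.09 on the log2 scale (value -1.09 ± 0.26 SE, 95% interval -1.62 to -0.57, adjusted p = 0.0415). That call was lost with DESeq2 (adjusted p = 0.0573), with DESeq2's size factors in edgeR (adjusted p = 0.0578), and without any one of 7 of the 8 libraries involved. Those are both S38A asynchronous, both S38A mitotic and both S38D mitotic libraries and S38D asynchronous replicate 1 (adjusted p 0.0703 to 0.3, log2 values -1.24 to -0.78). No sign changed. For S38D against WT 0 of 9 passed (0.0598% of all genes), with 1 gene, Dnmt1, at an unadjusted p under 0.05 and 0 called by DESeq2. The Dnmt1 value there was -1.28 ± 0.30 (SE, 95% interval -1.89 to -0.68, adjusted p = 0.0676), and it passed without a filter on low counts (adjusted p = 0.00952) and without S38D asynchronous replicate 2 (adjusted p = 0.0015). For S38A against WT 0 of 9 passed with edgeR or DESeq2 (0.448% of all genes), with Suz12 alone at an unadjusted p under 0.05, and Dnmt1 had -0.19 ± 0.26 (SE, 95% interval -0.71 to 0.33, adjusted p = 0.885). Uhrf1 differed by -0.60 between S38D and S38A (95% interval -1.18 to -0.02, adjusted p = 0.455). Its values were -0.37 for S38D against WT and 0.23 for S38A against WT, and neither passed.

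The balance between the 2 maintenance partners was described by the ratio of their reads. For every Uhrf1 read there were 3.25 and 2.14 Dnmt1 reads in S38A mitotic libraries and 3.56 and 3.20 in S38A asynchronous ones. In S38D cells the ratio was 1.22 and 1.19 in mitotic libraries and 2.5 and 1.83 in asynchronous ones. In WT cells it was 2.42 and 2.25 in mitotic and 1.86 and 2.63 in asynchronous libraries. The 2 S38D mitotic libraries were the lowest of the 12, while mitotic and asynchronous ratios overlapped in S38A and in WT cells. Dnmt1 also took a different share of the reads of the 10 genes. It made up 30.0 and 28.2% in S38A mitotic and 45.0 and 44.7% in S38A asynchronous libraries. In S38D cells it took 8.54 and 9.64% in mitotic and 36.3 and 25.1% in asynchronous libraries. In WT cells its share was 15.2 and 12.5% in mitotic and 20.4 and 28.6% in asynchronous libraries. The ratios are relative within a library, compare genes of unequal length and have no test of their own.

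**Figure D3:**
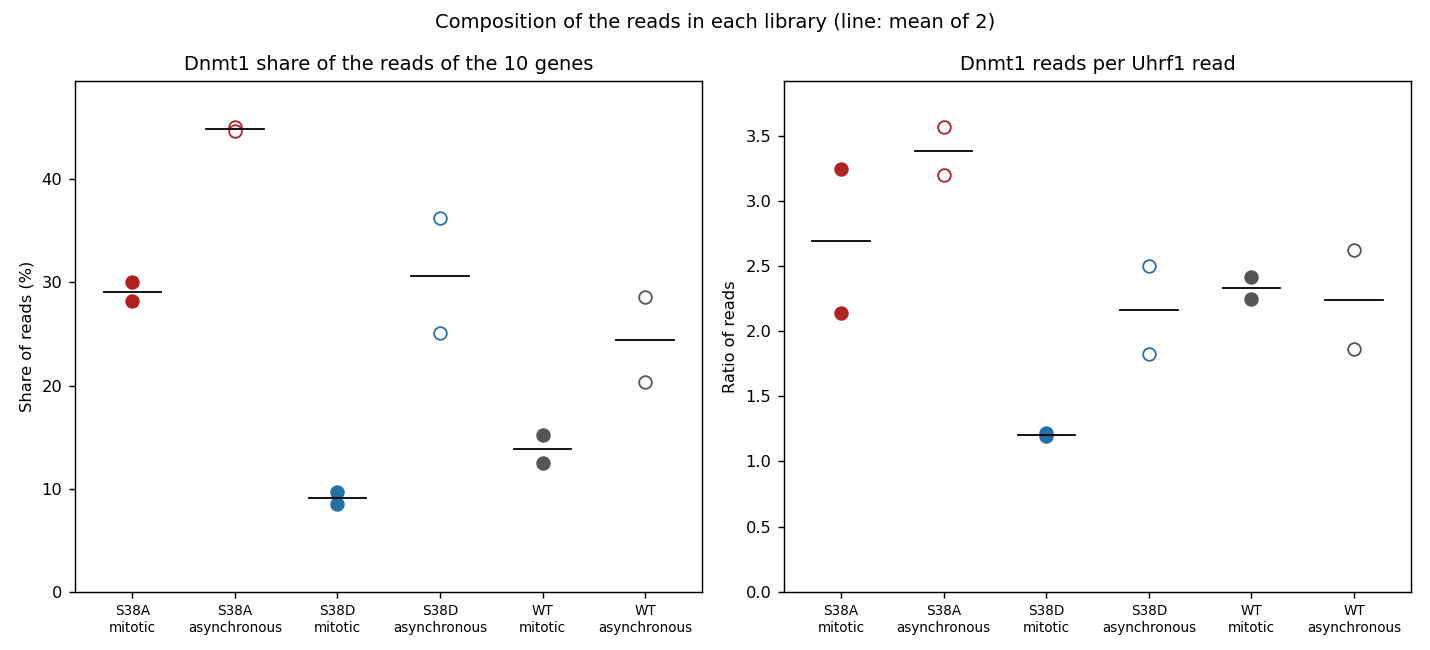
Share of Dnmt1 in the reads of the 10 genes (left, y axis in percent) and Dnmt1 reads per Uhrf1 read (right, y axis a ratio) in each library of the 6 groups (x axis; filled, mitotic; open, asynchronous; lines, mean of 2). S38A asynchronous libraries stand highest on the left at 44.7 and 45.0%, and the 2 S38D mitotic libraries stand lowest on both sides, at 8.54 and 9.64% and at ratios of 1.22 and 1.19.

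The genotypes were then compared. Averaged over states, 6 of the 9 tested genes passed between S38A and WT, 5 higher and 1 lower in S38A, where 18% of all genes passed. The count was 3 with DESeq2 and 3 without WT asynchronous replicate 2. Over all 6692 genes tested, DESeq2 called 749 and edgeR 1207. Dnmt1 was 3.44-fold higher in S38A cells (log2 1.78 ± 0.16 SE, 95% interval 1.46 to 2.10, adjusted p = 2.2e-13), the 16th largest rise among 6692 genes. Uhrf1 was 2.56-fold higher (log2 1.36 ± 0.16 SE, adjusted p = 2.18e-09). Ezh2, Eed and Dnmt3a were higher and Tet2 was lower, as described with each gene below. The members' median log2 difference was 0.49, against -0.01 over all genes tested. Taken by state, 3 of 9 passed in asynchronous cells (9.32% of all genes) and 3 of 9 in mitotic cells (13.2% of all genes), all higher in S38A. Dnmt1 and Uhrf1 were among them both times, with log2 differences of 1.85 ± 0.16 for Dnmt1 and 1.26 ± 0.20 for Uhrf1 while asynchronous (SE, adjusted p = 3.96e-14 and 2.29e-06). While mitotic they were 1.66 ± 0.19 for Dnmt1 and 1.49 ± 0.24 for Uhrf1 (SE, adjusted p = 3.19e-10 and 3.22e-06).

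S38D cells were compared with WT cells in the same way. Averaged over states, 2 of 9 genes passed, Uhrf1 and Ezh2, both higher in S38D (4.77% of all genes). The log2 difference of Uhrf1 was 0.75 ± 0.17 (SE, adjusted p = 0.00319) and that of Dnmt1 0.41 ± 0.17 (SE, 95% interval 0.07 to 0.75, adjusted p = 0.176). Averaged values come from a fit with 1 genotype difference for both states and are not plain means of the values by state. For Dnmt1 the estimates by state, given below, had opposite signs, so 0.41 describes neither state. In asynchronous cells 3 of 9 passed, all higher in S38D (3.33% of all genes). Dnmt1 was higher by 0.81 ± 0.17, Uhrf1 by 0.86 ± 0.20 and Ezh2 by 0.78 ± 0.18 (SE, adjusted p = 0.00117, 0.00451 and 0.0046). None of these 3 asynchronous calls held with S38D and WT asynchronous libraries alone in the fit (adjusted p 0.052 to 0.0649). That of Dnmt1 was also lost without WT asynchronous replicate 1 or S38D asynchronous replicate 1 (adjusted p = 0.0796 and 0.127). That of Uhrf1 was lost with DESeq2 and without WT asynchronous replicate 2 (adjusted p = 0.084 and 0.112). In mitotic cells 0 of 9 passed with edgeR or DESeq2 (1.82% of all genes), and 2, Ezh2 and Eed, had an unadjusted p under 0.05. Dnmt1 there was at -0.47 (95% interval -0.98 to 0.03, adjusted p = 0.466) and Uhrf1 at 0.49 (95% interval -0.11 to 1.08, adjusted p = 0.553). The S38A and S38D comparisons use the same WT libraries and are not independent of each other.

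The 2 mutants were also set against each other. Averaged over states, 3 of 9 genes passed, all lower in S38D than in S38A (17.9% of all genes): Dnmt1, Uhrf1 and Dnmt3a. Dnmt1 was at -1.37 ± 0.15 and Uhrf1 at -0.61 ± 0.15 (log2, SE, adjusted p = 2.69e-10 and 0.00179). In asynchronous cells 2 of 9 passed (8.71% of all genes), Dnmt1 at -1.04 ± 0.15 and Dnmt3a (SE, adjusted p = 2.87e-07 for Dnmt1). In mitotic cells 2 of 9 passed (12.9% of all genes), with Dnmt1 4.38-fold lower in S38D (log2 -2.13 ± 0.21 SE, adjusted p = 5.4e-12) and Uhrf1 at -1.0 ± 0.24 (log2, SE, 95% interval -1.48 to -0.53, adjusted p = 0.00192). The mitotic Uhrf1 call was lost without S38A mitotic replicate 2 (adjusted p = 0.079) and without S38D mitotic replicate 1 (adjusted p = 0.0805). Cells labelled S38D thus had fewer Dnmt1 footprints than cells labelled S38A in both states.

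**Figure D4:**
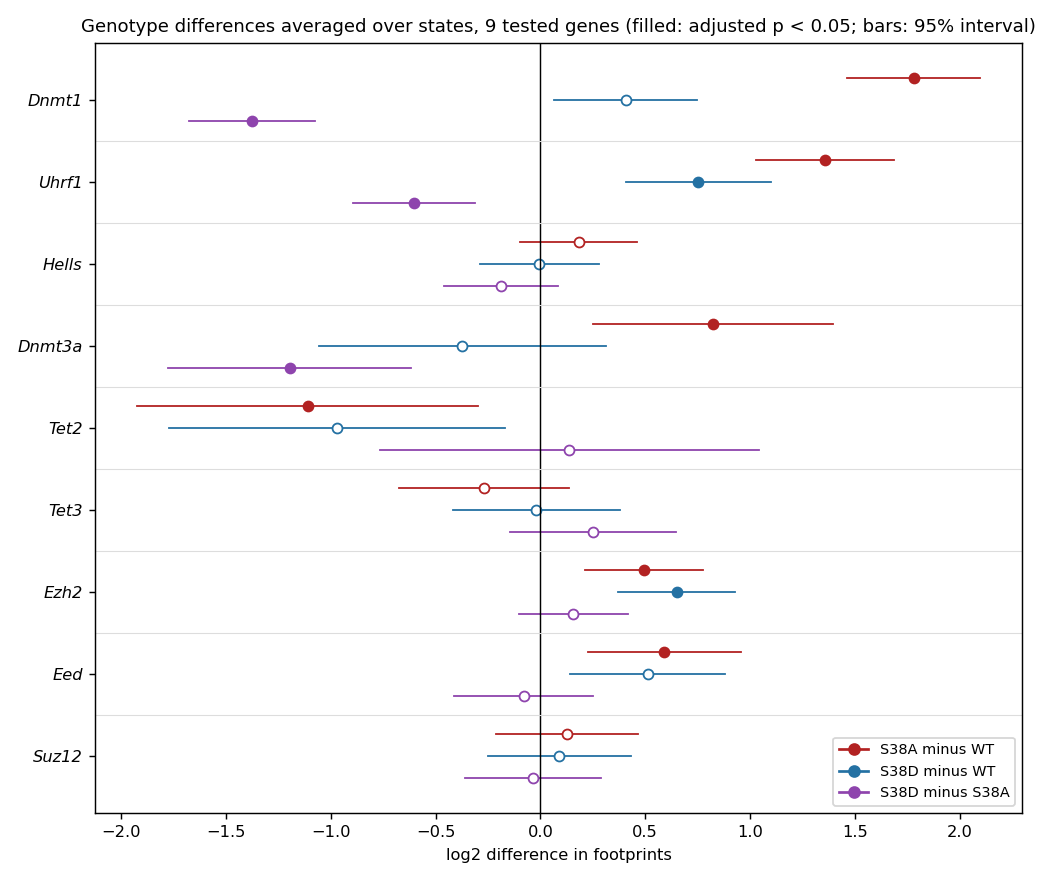
Log2 difference of footprints between genotypes, averaged over states (x axis), for the 9 tested genes (rows): S38A minus WT (red), S38D minus WT (blue) and S38D minus S38A (purple). Points are estimates, filled at an adjusted p under 0.05, and bars are 95% intervals; Dnmt1 stands at 1.78, 0.41 and -1.37, and Ezh2 at 0.49, 0.65 and 0.16.

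Genes of the cell cycle differed in the same comparisons. Genes marking phases were taken by Ensembl ID from the marker pairs of the scran package, after the data were seen. In mitotic cells averaged over genotypes, 8 of 74 tested S phase genes were higher and 24 lower (median log2 change -0.15), and 5 of 67 G2M genes were higher and 32 lower (median -0.35). Of 81 G1 genes 17 were higher and 9 lower. Within genotypes, too, G2M genes were more often lower than higher in mitotic cells (21 against 1 in S38A, 24 against 2 in S38D and 19 against 4 in WT). Mitotic state was taken from the labels and was not checked in these data. Over all genes tested, 38.9% passed, nearly balanced at 1266 higher against 1338 lower, while lower genes outnumbered higher ones in the S and G2M lists. In S38A against WT cells averaged over states, 21 S phase genes were higher and 2 lower (median 0.36), and 19 G2M genes were higher and 2 lower (median 0.23), where 18% of all genes passed (679 higher, 528 lower). In S38D against WT cells 2 S phase genes were higher and 1 lower, near the 4.77% of all genes. In S38D against S38A cells 3 were higher and 23 lower (median -0.22), where 17.9% of all genes passed (553 higher, 645 lower). More S phase genes were thus higher than lower in S38A against WT cells, and more were lower than higher in S38D against S38A cells. Summed over the S phase list, mitotic libraries held 15347 to 15552 CPM in S38A, 13244 to 13292 CPM in S38D and 12479 to 13348 CPM in WT cells. Asynchronous libraries held 17116 to 17827 CPM in S38A, 15598 to 15786 CPM in S38D and 14125 to 14818 CPM in WT cells. Within each state S38A libraries lay above all others, and S38D libraries lay above WT ones in asynchronous cells and within their range in mitotic cells. Alignments at more than 1 place made up 65.8 to 73.0% of those counted in mitotic and 62.3 to 68.3% in asynchronous libraries. Among mitotic libraries this share was 65.8 to 70.4% in S38A, 72.4 to 72.5% in S38D and 73.0% in WT cells. Among asynchronous ones it was 62.3 to 62.8% in S38A, 65.3 to 66.9% in S38D and 66.3 to 68.3% in WT cells. Uhrf1, Ezh2 and Dnmt3b are themselves in the G1 list and the other members in none. The part of cell cycle composition and of library quality in the results for Dnmt1 and Uhrf1 was not tested.

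Hells, the third of the maintenance genes, kept a narrow range. It had 282 to 321 CPM (median 291) in the 6 mitotic and 254 to 436 CPM (median 335) in the 6 asynchronous libraries, so that the mitotic range lay inside the asynchronous one. Its averaged log2 change was -0.20 ± 0.11 (SE, 95% interval -0.43 to 0.02, adjusted p = 0.153), and it passed in 1 alternative, without S38D asynchronous replicate 1 (-0.29, adjusted p = 0.0408). Between S38A and WT it differed by 0.18 (95% interval -0.10 to 0.46, adjusted p = 0.401) and between S38D and WT by -0.01 (95% interval -0.29 to 0.28, adjusted p = 0.99). The interval against S38A leaves out differences of the size seen for Dnmt1 or Uhrf1.

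Of the de novo enzymes, Dnmt3a had few reads, 6 to 23 per library, and Dnmt3b nearly none. S38A mitotic libraries had 37.4 and 53.0 CPM of Dnmt3a and S38A asynchronous ones 60.0 and 74.4 CPM. S38D libraries had 22.9 and 21.0 CPM when mitotic and 28.7 and 24.4 CPM when asynchronous. WT libraries had 40.2 and 18.1 CPM when mitotic and 31.3 and 36.5 CPM when asynchronous. All 4 S38D libraries stood below all 4 S38A libraries, and WT mitotic replicate 1 overlapped with S38A. Between S38D and S38A, Dnmt3a was at -1.20 ± 0.29 averaged over states (SE, adjusted p = 0.00198), with no alternative that ended this call. In asynchronous cells alone it was at -1.31 ± 0.37 (SE, adjusted p = 0.0147), which was lost without either S38A asynchronous library or without S38D asynchronous replicate 2 (adjusted p 0.0651 to 0.141). DESeq2 gave Dnmt3a no adjusted p in that comparison and so no call.

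Dnmt3a was higher in S38A than in WT cells by 0.82 ± 0.29 averaged over states (SE, 95% interval 0.25 to 1.40, adjusted p = 0.0354). This call was lost with DESeq2 (adjusted p = 0.148) and without any one of the 4 asynchronous libraries of S38A and WT, S38A mitotic replicate 2 or WT mitotic replicate 2 (log2 0.65 to 0.84, adjusted p 0.0583 to 0.161). Over all genotypes, its mitotic change was -0.43 ± 0.24 (SE, adjusted p = 0.163). Dnmt3b had 0 to 4 reads per library and 23 in all, and the highest library stood at 8.21 CPM. A count of 0 in a library allows up to 3 reads, or 6.16 to 11.7 CPM, so small differences between groups were not detectable at this depth. Tested without a filter on low counts, Dnmt3b passed no comparison (adjusted p 0.742 to 1 over the 16 comparisons). The floor covers counting error only.

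Tet2 and Tet3, the oxidising enzymes, did not follow Dnmt1. Tet2 had 18.7 and 10.6 CPM in S38A mitotic, 20.9 and 12.9 CPM in S38A asynchronous, 22.9 and 10.5 CPM in S38D mitotic and 8.21 and 31.0 CPM in S38D asynchronous libraries. WT mitotic libraries had 47.0 and 18.1 CPM and WT asynchronous ones 50.8 and 29.9 CPM. With 3 to 14 reads per library, groups overlapped widely, S38A with WT only in mitotic cells. Tet2 was lower in S38A than in WT cells (log2 -1.11 ± 0.41 SE, 95% interval -1.92 to -0.30, adjusted p = 0.0468). With 4 to 8 reads in S38A libraries, Tet2 passed the filter on low counts mainly through WT libraries, where it was higher. The call was kept without that filter. The call was lost with DESeq2 (adjusted p = 0.117) and without WT asynchronous replicate 1, WT mitotic replicate 1 or any one of the 4 S38A libraries (log2 -1.29 to -0.87, adjusted p 0.0516 to 0.206). S38D against WT gave -0.97 ± 0.40 (SE, adjusted p = 0.168).

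Tet3 had 93.4 and 90.1 CPM in S38A mitotic and 75.6 and 77.6 CPM in S38A asynchronous libraries. It had 114 and 105 CPM in S38D mitotic and 94.4 and 84.2 CPM in S38D asynchronous libraries, and 164 and 82.9 CPM in WT mitotic and 78.2 and 86.2 CPM in WT asynchronous libraries. Mitotic libraries were higher in both mutants, without overlap, but Tet3 passed in neither (edgeR, adjusted p = 0.565 in S38A and 0.484 in S38D). In WT cells 1 mitotic library stood far above and the other within the range of the asynchronous pair. The averaged log2 change was 0.36 ± 0.16 (SE, 95% interval 0.03 to 0.69, adjusted p = 0.0743) and passed without WT mitotic replicate 2 (0.48, adjusted p = 0.0209). Against WT, Tet3 was at -0.27 in S38A (95% interval -0.67 to 0.14, adjusted p = 0.394) and at -0.02 in S38D (95% interval -0.42 to 0.38, adjusted p = 0.976).

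Ezh2, the catalytic subunit of PRC2, was higher in both mutants than in WT cells. It had 299 and 270.2 CPM in S38A mitotic and 376 and 343 CPM in S38A asynchronous libraries. It had 294 and 347 CPM in S38D mitotic and 359 and 432 CPM in S38D asynchronous libraries, against 191 and 251 CPM in WT mitotic and 246 and 216 CPM in WT asynchronous libraries. All 8 mutant libraries stood above all 4 WT libraries, the closest being 270.2 CPM in S38A mitotic replicate 2 and 251 CPM in WT mitotic replicate 2. Averaged over states, S38A was 1.41-fold above WT (log2 0.49 ± 0.14 SE, 95% interval 0.21 to 0.77, adjusted p = 0.00855). S38D was above WT by 0.65 ± 0.14 on the log2 scale (SE, 95% interval 0.37 to 0.93, adjusted p = 0.0015). The S38A call was lost without WT asynchronous replicate 2 (log2 0.41, adjusted p = 0.0638), and the S38D call in no alternative. S38D minus S38A was 0.16 (95% interval -0.10 to 0.42, adjusted p = 0.45).

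By state, Ezh2 passed in asynchronous S38A cells (log2 0.65 ± 0.19 SE, adjusted p = 0.0173) and in asynchronous S38D cells as given above. The asynchronous S38A call was lost with DESeq2 (adjusted p = 0.114) and without either WT asynchronous library or S38A asynchronous replicate 1 (log2 0.53 to 0.72, adjusted p 0.0522 to 0.227). That of S38D was lost with DESeq2 (adjusted p = 0.0648) and without WT asynchronous replicate 2 or S38D asynchronous replicate 2 (adjusted p = 0.148 and 0.0582). In mitotic cells Ezh2 was at 0.35 in S38A (95% interval -0.02 to 0.72, adjusted p = 0.226) and at 0.52 in S38D (95% interval 0.14 to 0.90, adjusted p = 0.187). Over all genotypes, its mitotic change was -0.24 ± 0.11 (SE, 95% interval -0.47 to -0.02, adjusted p = 0.0774), and it passed without WT mitotic replicate 2 (-0.29, adjusted p = 0.0491). Whether the genotype difference in Ezh2 changed with state gave -0.30 for S38A and -0.26 for S38D against WT, with adjusted p = 0.785 and 0.914.

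Eed, the subunit that binds trimethylated lysine 27, had 179.8 and 148 CPM in S38A mitotic and 146 and 133 CPM in S38A asynchronous libraries. S38D libraries had 145 and 158 CPM when mitotic and 131 and 144 CPM when asynchronous, and WT libraries 117 and 80.3 CPM when mitotic and 137 and 79.6 CPM when asynchronous. In mitotic cells every mutant library exceeded both WT libraries, whereas in asynchronous cells WT replicate 1 lay among the mutants. Averaged over states Eed was 1.51-fold higher in S38A than in WT cells (log2 0.59 ± 0.18 SE, 95% interval 0.23 to 0.96, adjusted p = 0.0155). The call was lost with DESeq2 (adjusted p = 0.0722) and without WT asynchronous replicate 2, WT mitotic replicate 2 or S38A mitotic replicate 1 (log2 0.44 to 0.49, adjusted p 0.0851 to 0.143). In mitotic cells it was higher by 0.76 ± 0.24 (SE, adjusted p = 0.0234), and this was lost with DESeq2 (adjusted p = 0.15) and without WT mitotic replicate 2 or S38A mitotic replicate 1 (log2 0.52 and 0.62, adjusted p = 0.343 and 0.241). S38D against WT gave 0.51 ± 0.19 averaged over states (SE, adjusted p = 0.1), which passed without WT asynchronous replicate 1 (0.72, adjusted p = 0.0263).

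Suz12, the subunit that holds the complex together, passed no comparison. It had 168 and 114 CPM in S38A mitotic and 185 and 204 CPM in S38A asynchronous libraries. The other 8 libraries lay between 133 CPM (WT asynchronous replicate 2) and 182 CPM (S38D mitotic replicate 2). Its differences averaged over states were 0.13 for S38A against WT (95% interval -0.21 to 0.46, adjusted p = 0.668) and 0.09 for S38D against WT (95% interval -0.25 to 0.43, adjusted p = 0.854). Its change with state was -0.04 ± 0.14 (SE, 95% interval -0.32 to 0.23, adjusted p = 0.83). The mutants' difference from WT in Ezh2 was thus not matched by a call for Suz12, and the difference between the 2 genes was not tested. Reads of Ezh2 per read of Eed and Suz12 together ran from 0.731 to 1.47 over the 12 libraries.

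Against all genes tested, Dnmt1 and Uhrf1 lay far out in both main distributions. Tet2 had the 106th largest fall in S38A against WT. It had only 3 to 14 reads per library, so its change is measured coarsely, and its call was lost in 7 of 18 alternatives.

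**Figure D5:**
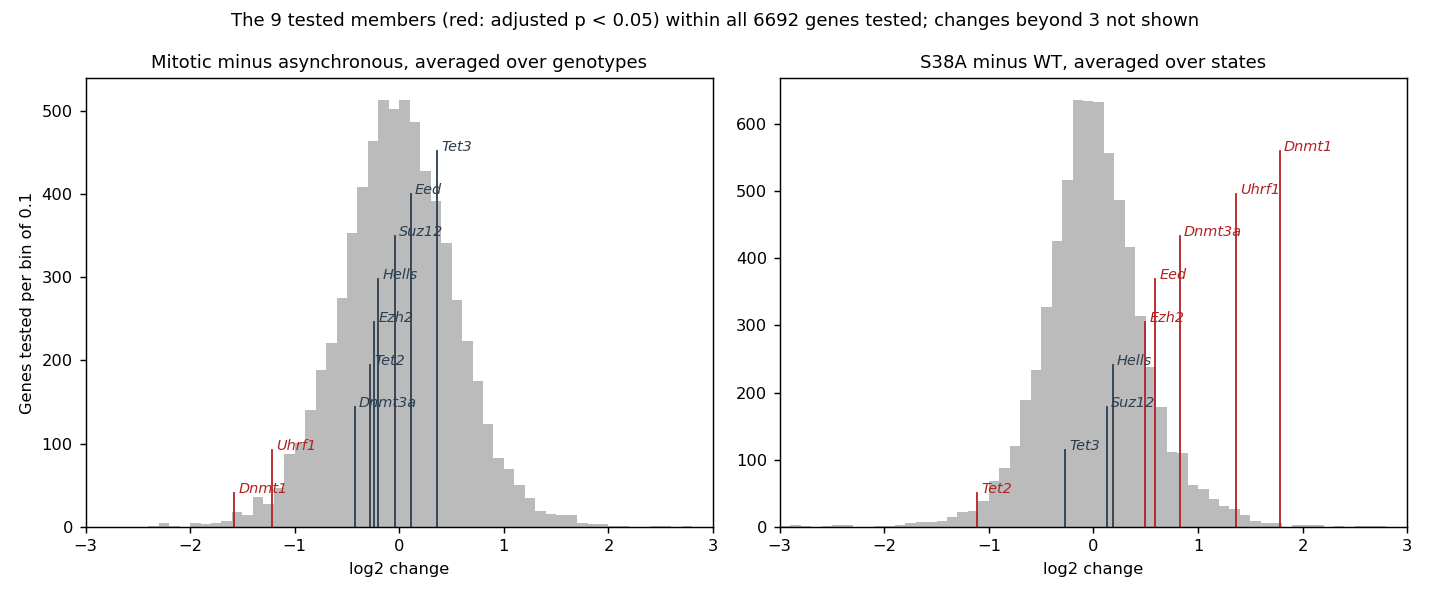
Number of the 6692 genes tested (y axis, per bin of 0.1) by log2 change (x axis) for mitotic minus asynchronous averaged over genotypes (left) and S38A minus WT averaged over states (right). Vertical lines mark the 9 tested genes, red at an adjusted p under 0.05, and their heights only separate the names; 2 lines are red on the left and 6 on the right, with Dnmt1 at -1.58 and 1.78.

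Likeness over the 12 libraries was described by the root mean square (RMS) difference of centred log2 CPM, among 6514 other genes of mean CPM of at least 20. Uhrf1 was the 11th nearest gene to Dnmt1 (RMS 0.484, where the nearest gene had 0.305 and the median gene 1.21). Seen from Uhrf1, Dnmt1 ranked 200th. Hells and Ezh2 ranked 2003rd and 1785th from Dnmt1. Among the PRC2 genes, Suz12 ranked 232nd and Eed 349th from Ezh2 (RMS 0.296 and 0.312), and Hells stood beside them at 374th (0.316). The nearest genes themselves had no symbol in the tables used and are not named. These ranks are a description, and all genes share the 12 libraries.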

How the data were processed

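The authors deposited 1 table of whole-number, unnormalized footprint counts per library, over coding sequence by the file naming. Per the submitters' processing notes, STAR 2.5.3a, Bowtie2 2.3.2 and HTSeq 0.9.1 were used with mm10, besides DESeq2 1.18.1 and bcl2fastq 2.16.0.10, and roles and parameters are not given in the sources used here. Strand use is not given either, so reads of overlapping or antisense genes cannot be told apart. The 5 summary rows of each table stayed out of all totals. Of the alignments they and the genes count, 62.3 to 73.0% were at more than 1 place. Of uniquely aligned reads, 25.6 to 34.6% in mitotic and 18.0 to 25.8% in asynchronous libraries lay outside counted features.

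The test was edgeR 4.0.16's quasi-likelihood F test with TMM scaling in R 4.3.3, on all 12 libraries, after filterByExpr with a minimum count of 10 left 6692 of 11680 genes with a read. A model of 6 groups gave differences within a state or genotype, and an additive model of genotype and state gave the averaged ones. The additive model holds each genotype difference equal in both states and the change of state equal in all genotypes. Its values are therefore not plain means of those from the model of 6 groups. P-values were adjusted by Benjamini-Hochberg over all genes tested, at a threshold of 0.05. Standard errors are the log2 change over the square root of F, and intervals are at 95%. CPM were computed from the deposited counts after TMM scaling, and log2 CPM for likeness used a prior count of 2. The test was also run on simulated counts with known changes, drawn as independent libraries with the spread estimated from these data. Such a run cannot show whether that spread is technical. Libraries of a group differed by more than sampling noise (chi-square per degree of freedom 1.06 to 1.93). Alternatives were DESeq2 1.42.0, its size factors in edgeR, library totals, other filters, only the groups compared, a replicate block and leaving out each library.

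Member genes and lists were chosen with earlier results of these data known. All 10 members are named, and other genes only where the tables give a symbol. The reference table (GRCm38.p6) held 0 Ensembl IDs, so lists by symbol, cell type markers and levels per coding length were not used here. Marker pairs by Ensembl ID came from scran 1.30.0. Coordinates and promoter sequence are RefSeq's.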

Additional observations from a re-analysis of the deposited data

Results flagged for a closer look

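The mitotic change of Dnmt1 differed between S38D and S38A cells by -1.09 on the log2 scale (edgeR interaction test, adjusted p = 0.0415, 0.239% of all genes called). It was -2.44 in S38D and -1.35 in S38A cells, with a fall in both. This comparison was added after the data were seen, and the call was lost in 9 of its 15 alternatives.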

How the results depend on the processing

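Of the 33 results called for single genes, 21 kept their call and sign in each alternative run, and over 457 alternatives 407 kept the call, 50 lost it and 0 changed sign. The losses are named with each gene above. Runs that gave a gene no adjusted p were left out of these counts. DESeq2 called 3 members for S38A against WT averaged over states, and 749 of all 6692 genes (edgeR 1207). In asynchronous cells it called 1 member for S38D against WT, and 57 of all genes (edgeR 223). For S38D against S38A there it called 1 member, and 135 of all genes (edgeR 583). For the mitotic change of S38D against S38A it called 0 members, and 10 of all genes (edgeR 16). DESeq2's size factors in edgeR also gave 0 members there, and 12 of all genes. With only the groups compared in the fit, 0 members were called for S38D against WT in asynchronous cells, and 70 of all 6133 genes. Without a filter, 1 member was called for the mitotic change of S38D against WT, and 7 of all 11680 genes. Leaving out 1 library gave 2 to 4 genes for the averaged change of state (4 without WT mitotic replicate 2) and 3 to 6 for S38A against WT averaged over states (3 without WT asynchronous replicate 2). It gave 1 to 2 in asynchronous cells both for S38D against WT and for S38D against S38A, 1 to 2 for S38D against S38A in mitotic cells, and 0 to 1 for the mitotic change of S38D against WT and against S38A. Among 25 uncalled results, 6 of 442 alternatives gave a call and 30 changed sign. S38D against WT, Hells was at 0.0021 with DESeq2's size factors, 0.036 without a filter, 0.021 with mean CPM of at least 10 and 0.0033 with DESeq2, and Tet3 was at 0.0209 and 0.0104 under the middle settings. Leaving out 1 library, S38D against WT ran from -0.13 to 0.14 for Hells and from -0.17 to 0.25 for Tet3, and S38A against WT from -0.45 to 0.0040 for Tet3. S38D against S38A ran from -0.12 to 0.027 for Eed, -0.18 to 0.069 for Suz12 and -0.32 to 0.51 for Tet2. The averaged change of Suz12 with state ran from -0.10 to 0.065, and the difference of Dnmt1's mitotic change between S38A and WT from -0.42 to 0.072. Over 15 pairs of groups, deviations of same-numbered libraries correlated at -0.232 (WT with S38D asynchronous) to 0.0918, with 0 pairs above 0.1. A batch shared by libraries of unlike number was not tested. The replicate block left the counts as they were, for instance 2 for the averaged change of state and 6 for S38A against WT averaged over states. Depth limits Dnmt3a, Dnmt3b and Tet2 most.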
